A study of Homo sapiens with 6 samples.

Results

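Chemokines that melanoma cells can secrete were followed as transcripts in WM266.4 cells with and without silencing of RIPK4. The members were 10 genes given by name, CXCL1, CXCL2, CXCL3, CXCL5, CXCL6, CXCL8, CXCL10, CXCL12, CCL2 and CCL20, and were found by gene symbol in the deposited table. Of these 10, 8 were among the 24526 genes of the table, and 7 were among the 16297 genes with enough counts to be tested. CXCL6 and CXCL12 were not found in the table, so that no level is given for them, but their promoter sequences were searched. CXCL5 had 2 to 9 counts in each library and was too low to judge.

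Chemokines are small secreted proteins that attract leukocytes by binding G protein-coupled receptors, and they are grouped as CXC or CC by the spacing of their first cysteines. CXC chemokines with the ELR motif bind CXCR2, and some also CXCR1, attract neutrophils and promote the growth of blood vessels, while CXCL10 binds CXCR3 on T cells. CCL2 attracts monocytes through CCR2, and CCL20 attracts cells that carry CCR6. In melanoma, CXCL8 (interleukin-8) and CXCL1 are known as growth factors of the tumour cells, and transcription of many chemokine genes is switched on by NF-kB after stimulation by cytokines such as TNF-α or IL-1.

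The cells, WM266.4, are an established melanoma line of human origin. The neg.si group was transfected with Silencer Select Negative Control No. 2, a control siRNA, and the RIPK4.si group with 1 siRNA against RIPK4, a receptor-interacting serine/threonine kinase. Each group had 3 biological replicates, taken 48 h after transfection, and no TNF-α is named for these libraries. A single siRNA was used, so that effects on other transcripts cannot be told apart from those of RIPK4. Values of single libraries are listed below in the order of replicates 1, 2 and 3. The neg.si libraries held 31688095, 30539087 and 30056850 counts on genes, and the RIPK4.si libraries 28464057, 30751441 and 30772817. Levels are in CPM, scaled by TMM, and at the median total 10 counts correspond to 0.326 CPM.

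The neg.si libraries stood apart from each other in their trend with GC content. For each library, the deviation of a gene's log2 CPM from its mean over the 6 libraries was set against its GC content. Over genes, which are not independent, Spearman's rho of this deviation with GC content was 0.555 in neg.si replicate 1. It was -0.547 in neg.si replicate 3, against -0.0788 to 0.165 in the other libraries. GC content was 32.5% in the longest transcript of CXCL8, 35.5% in CCL20, 37.5% in CXCL10, 44.7% in CXCL2, 45.4% in CXCL1, 45.5% in CCL2 and 50.5% in CXCL3. With the GC trend of each library removed, the 7 members kept the direction of their difference. The part of GC content in the differences between single libraries was not tested further.

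The silenced gene itself was examined first. RIPK4 stood at 85.8, 76.5 and 54.7 CPM in neg.si and at 19.9, 16.7 and 21.5 CPM in RIPK4.si. Every RIPK4.si library lay below every neg.si library. The log2 fold change was -1.90 (95% interval -2.36 to -1.44, adjusted p = 0.0102, quasi-likelihood test of edgeR, adjusted by Benjamini-Hochberg as are all adjusted p-values here). With each library left out it stayed between -2.06 and -1.74. Without neg.si replicate 2 the adjusted p was 0.106, and without RIPK4.si replicate 1, 2 or 3 it was 0.094, 0.0622 or 0.0725.

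The members differed widely in level. Divided by exon length, CXCL8 stood at 153 ± 6.67 CPM per kilobase (SD, n = 3) in neg.si, 4.14 times the level of CXCL1, the next in order, at 36.9 ± 3.44. CXCL10 followed at 24.7 ± 1.97 and CCL2 at 9.05 ± 1.38 CPM per kilobase. None of these 4 overlapped its neighbour in the neg.si libraries. CXCL2 at 2.26 ± 0.274 and CCL20 at 1.82 ± 0.486 CPM per kilobase did overlap, and their order was the opposite when the length of the longest coding transcript was used and in RIPK4.si. CXCL3 at 0.388 ± 0.0392 and CXCL5 at 0.0714 ± 0.0486 CPM per kilobase were the lowest. With the length of the longest coding transcript, CXCL8 stood at 241 and CXCL1 at 42.8 CPM per kilobase in neg.si, which is further apart. CXCL8 was the gene with the 356th, 322nd and 331st highest count in neg.si, and the 292nd, 194th and 267th in RIPK4.si. It made up 78.5% to 80.4% of the counts of the 8 members in neg.si and 79.8% to 83.7% in RIPK4.si, so that a sum over the members is mostly CXCL8.

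**Figure D1:**
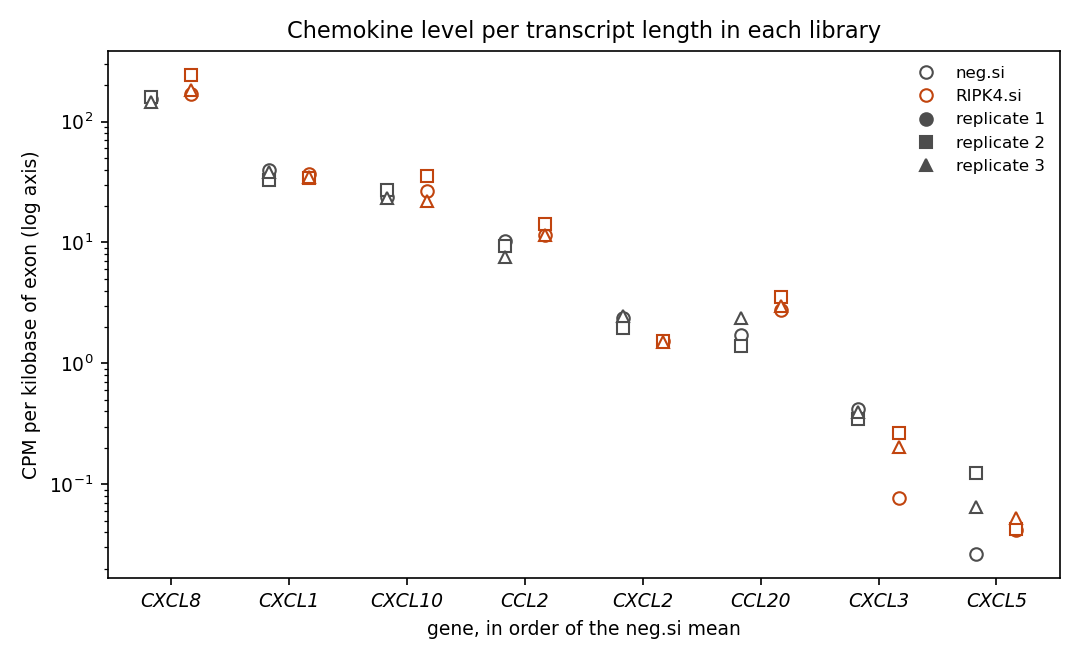
Level of the 8 members in CPM per kilobase of exon on a log axis, 1 point for each library, neg.si in grey and RIPK4.si in orange. CXCL8 lies highest in every library, the neg.si points of CXCL2 and CCL20 overlap, and CXCL5 is lowest.

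The genes of CXCL8, CXCL1, CXCL5, CXCL3 and CXCL2 lie together on chromosome 4 of GRCh38, between 73740541 and 74099196, a stretch of 358656 bases. CXCL10 lies apart from them at chr4:76021118-76023497, CCL2 at chr17:34255218-34257203 and CCL20 at chr2:227805739-227817564. Promoter sequences were compared because CXCL1, CXCL2 and CXCL3 are close copies of each other with unlike fitted log2 fold changes below. The 95% intervals of these fold changes overlapped. RefSeq entries (GRCh38.p14) of 250 bases before to 50 bases after the start were matched for 9 of the 10 members, all but CCL2. They were searched on both strands for 4 motifs, a kB-like GGNNTTTCC, an AP-1-like TGANTCA, an interferon response-like GAAANNGAA and the TATA box TATAAA. The kB-like letters were found in 8 of the 9 entries (CXCL1, CXCL2, CXCL3, CXCL5, CXCL6, CXCL8, CXCL10 and CCL20) and in 6.26% of all 35116 promoters. TGANTCA was found in CXCL8 and in 7.71% of all promoters, and TATAAA in CXCL8 and CCL20 and in 11.5% of all. GAAANNGAA was found in CXCL10, CXCL2 and CXCL3 and in 8.11% of all. The interferon response-like motif had first been searched with 1 more A at its end, a form found in CXCL10 alone of the members and in 3.57% of all promoters, and was shortened after that search. CXCL12 held none of the 4 in this window. The matches did not overlap each other, and they are a description of letters, not of binding.

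The stretches that hold the matches are given 5′ to 3′ along each gene for the 6 tested members that have an entry, with the matches in capitals. They are CXCL8 at chr4:73740424-73740551 (plus strand), CXCL1 at chr4:73869307-73869356 (plus), CXCL2 at chr4:74099232-74099420 (minus), CXCL3 at chr4:74038726-74038930 (minus), CXCL10 at chr4:76023657-76023726 (minus) and CCL20 at chr2:227813755-227813826 (plus), all before the RefSeq start.
CXCL8: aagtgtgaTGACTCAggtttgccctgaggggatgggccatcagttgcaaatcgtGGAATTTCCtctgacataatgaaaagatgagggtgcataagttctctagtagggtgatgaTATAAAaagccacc
CXCL1: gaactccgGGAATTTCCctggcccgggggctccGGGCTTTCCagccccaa
CXCL2: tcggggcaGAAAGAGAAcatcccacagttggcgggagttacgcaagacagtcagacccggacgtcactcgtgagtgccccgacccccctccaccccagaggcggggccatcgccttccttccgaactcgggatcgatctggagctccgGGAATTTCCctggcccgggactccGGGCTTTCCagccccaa
CXCL3: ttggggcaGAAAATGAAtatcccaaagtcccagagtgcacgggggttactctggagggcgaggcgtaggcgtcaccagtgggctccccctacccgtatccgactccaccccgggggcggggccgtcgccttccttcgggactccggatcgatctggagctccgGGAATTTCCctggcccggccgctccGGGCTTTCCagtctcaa
CXCL10: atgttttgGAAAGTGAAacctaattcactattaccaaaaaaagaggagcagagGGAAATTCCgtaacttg
CCL20: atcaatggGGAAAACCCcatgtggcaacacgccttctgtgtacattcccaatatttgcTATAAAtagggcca
CXCL1, CXCL2 and CXCL3 each hold the kB-like letters at 2 places, the nearer 53 to 45 bases before the start in all of them. Over the 53 bases before the start, CXCL1 shared 51 with CXCL2 and 47 with CXCL3, and 22 with CXCL8.

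CXCL8 is the main neutrophil attractant among the ELR chemokines. It had 12294, 12381 and 12001 counts in neg.si, against 12821, 18252 and 14671 counts in RIPK4.si. In CPM these were 397, 412 and 378 in neg.si and 437, 632 and 472 in RIPK4.si. Every RIPK4.si library lay above every neg.si library, and RIPK4.si replicate 2 stood well above the others. The log2 fold change was 0.38 (95% interval -0.02 to 0.77, adjusted p = 0.487, edgeR), which did not pass the test. Without RIPK4.si replicate 2 it was 0.21.

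CXCL1, a ligand of CXCR2 first isolated as a melanoma growth factor, had 1671, 1351 and 1645 counts in neg.si and 1469, 1338 and 1478 counts in RIPK4.si. The groups overlapped, at 54.0, 45.0 and 51.8 CPM in neg.si and 50.1, 46.3 and 47.5 CPM in RIPK4.si. The log2 fold change was -0.07 (95% interval -0.39 to 0.26, adjusted p = 0.948), and its sign turned without neg.si replicate 1, at 0.0053. Without neg.si replicate 2 it was -0.13.

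CXCL2 and CXCL3 are the closest relatives of CXCL1 and also act on CXCR2. CXCL2 had 102, 82 and 110 counts in neg.si, against 63, 62 and 65 counts in RIPK4.si. The groups did not overlap, and the RIPK4.si libraries lay close together, at 2.13 ± 0.0327 CPM (SD, n = 3) against 3.16 ± 0.383 CPM (SD, n = 3). The log2 fold change of CXCL2 was -0.57 (95% interval -1.06 to -0.08, adjusted p = 0.353), lower in RIPK4.si but not past the adjusted threshold.

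CXCL3 had few counts, 29, 23 and 28 in neg.si against 5, 17 and 14 in RIPK4.si. The groups did not overlap, and RIPK4.si replicate 1 was the lowest. Its log2 fold change was -1.09 (95% interval -2.08 to -0.09, adjusted p = 0.398), and -0.72 without RIPK4.si replicate 1. Some reads could come from a relative: in the longest coding transcripts, 5.33% of the 50-base stretches of CXCL1, 10.1% of those of CXCL2 and 5.26% of those of CXCL3 are also found in another of these genes, and none of 100 bases is. The share of read pairs that this concerns was not measured.

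CXCL5, a further ELR chemokine, had 2, 9 and 5 counts in neg.si and 3, 3 and 4 counts in RIPK4.si. At this depth no difference was detectable. CXCL5 also overlaps a long non-coding RNA gene on the opposite strand, and reads were counted without regard to strand.

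CXCL10, induced by interferons, had 858, 951 and 877 counts in neg.si, against 927, 1192 and 812 counts in RIPK4.si. The groups overlapped, with RIPK4.si replicate 2 the highest library and RIPK4.si replicate 3 the lowest in CPM. The log2 fold change was 0.19 (95% interval -0.25 to 0.62, adjusted p = 0.853), 0.0021 without RIPK4.si replicate 2 and 0.34 without RIPK4.si replicate 3. CXCL10 lies within ART3 on the opposite strand, and the exons of these genes do not overlap.

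Both CC chemokines were higher in every RIPK4.si library than in any neg.si library. CCL2 had 618, 538 and 466 counts in neg.si, against 654, 792 and 692 counts in RIPK4.si. Its level was 24.0 ± 2.97 CPM in RIPK4.si against 17.5 ± 2.67 CPM in neg.si (SD, n = 3 each). Its log2 fold change was 0.45 (95% interval 0.05 to 0.86, adjusted p = 0.383). This did not pass the adjusted threshold.

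CCL20 had 84, 67 and 119 counts in neg.si, against 130, 163 and 148 counts in RIPK4.si. The groups did not overlap, neg.si replicate 3 being the nearest to RIPK4.si. Its level was 4.94 ± 0.627 CPM in RIPK4.si against 2.90 ± 0.774 CPM in neg.si (SD, n = 3 each). The log2 fold change was 0.77 (95% interval 0.22 to 1.32, adjusted p = 0.247), the smallest of the members. Over the alternatives its adjusted p lay between 0.0641, without neg.si replicate 3, and 0.724.

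**Figure D2:**
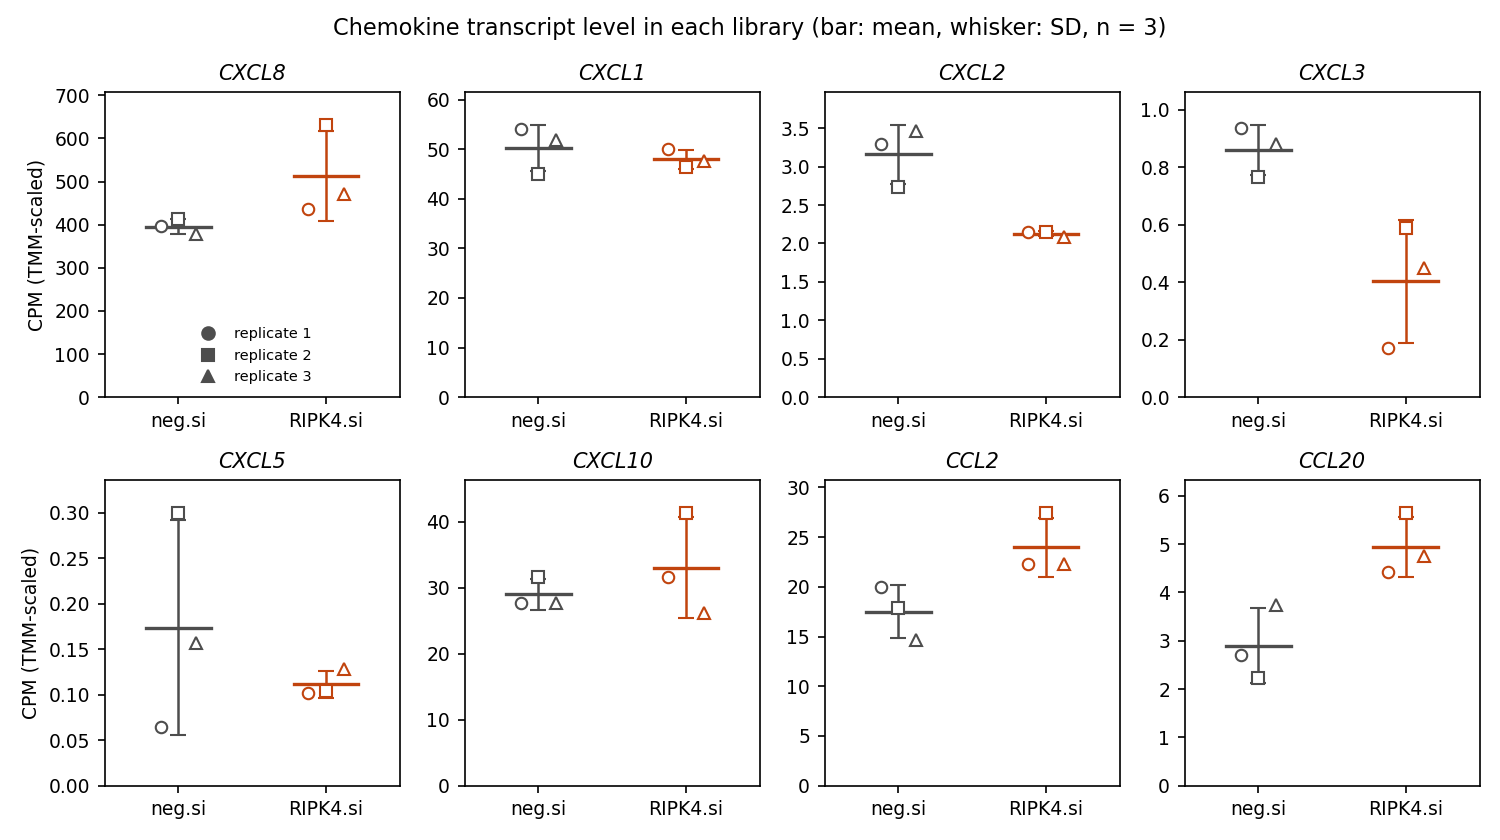
CPM of each member in each library, with the mean as a bar and the SD as a whisker (n = 3), and a vertical axis from 0 in each panel. The groups lie apart for CXCL8, CXCL2, CXCL3, CCL2 and CCL20 and overlap for CXCL1, CXCL5 and CXCL10.

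Of the 7 members tested, 0 had an adjusted p-value under 0.05 with edgeR, where 125 of all 16297 genes, or 0.767%, had one. With DESeq2 it was also 0 of 7, against 430 of 15490 genes, or 2.78%. At an unadjusted p-value under 0.05 there were 4 members with edgeR (CXCL2, CXCL3, CCL2 and CCL20), against 1768 genes or 10.8% of all. With DESeq2 there were 2 (CCL2 and CCL20), against 1790 genes. These 1790 were counted over the 24526 genes of the table, genes without an adjusted p-value included, and not over the 15490. The groups did not overlap with RIPK4.si higher in 3 members (CXCL8, CCL2 and CCL20), against 8.23% of all genes tested, and with RIPK4.si lower in 2 (CXCL2 and CXCL3), against 9.4%. With 3 libraries on each side, the smallest p-value of an exact permutation test is 0.1. The median log2 fold change of the 7 members was 0.19, and that of all genes tested -0.02.

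**Figure D3:**
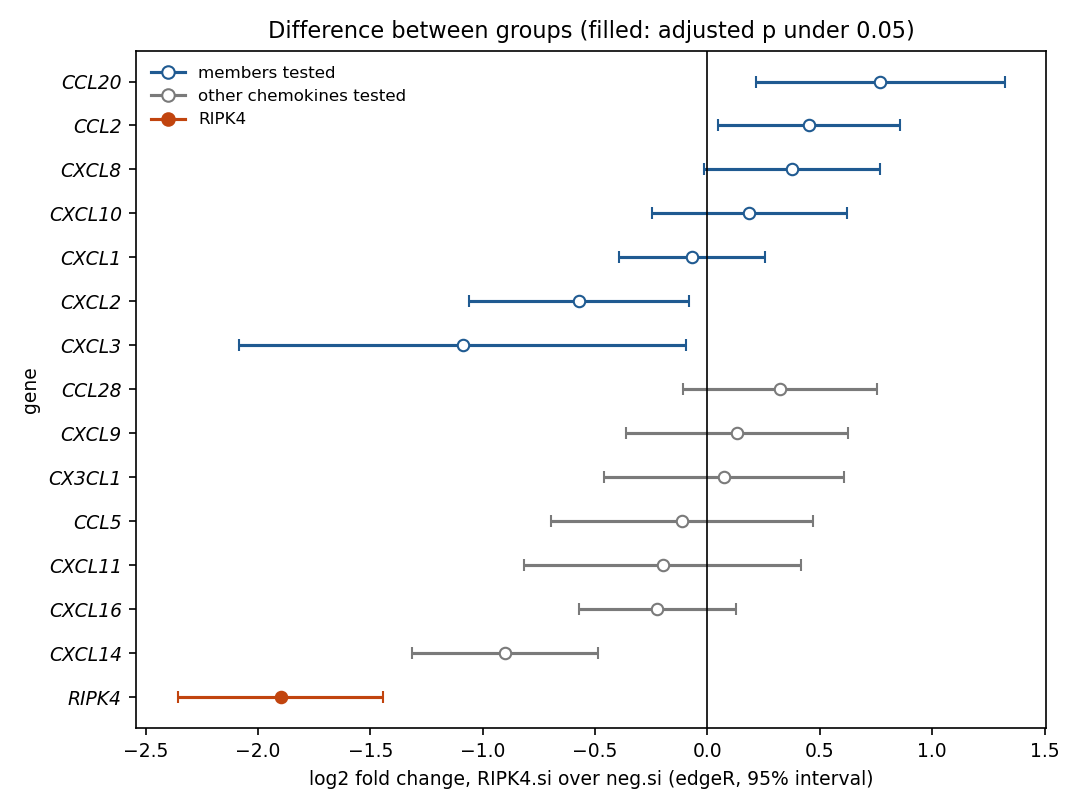
Log2 fold change of RIPK4.si over neg.si with its 95% interval from edgeR for the 7 members, the 7 other chemokines tested and RIPK4. RIPK4 alone of these is past an adjusted p of 0.05, and the intervals of CCL20, CCL2, CXCL2 and CXCL3 among the members leave out 0.

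Ratios between members within a library do not depend on the scaling of libraries. They were chosen after the values were seen. In an exact permutation test their p-values were 0.1 or 0.2, and 0.2 for each after adjustment over the ratios. There were 16.4, 16.5 and 14.95 CXCL1 counts for each CXCL2 count in neg.si and 23.3, 21.6 and 22.7 in RIPK4.si. The ratio of CXCL8 to CXCL2 counts was 109 to 151 in neg.si and 204 to 294 in RIPK4.si. Both ratios lay higher in every RIPK4.si library, so that CXCL2 stood lower relative to CXCL1 and CXCL8. Relative to CXCL3, its nearest neighbour among the members, it did not, with 3.52, 3.57 and 3.93 CXCL2 counts for each CXCL3 count in neg.si and 12.6, 3.65 and 4.64 in RIPK4.si. In the ratio of CXCL8 to CXCL1 counts the groups overlapped, at 7.36, 9.16 and 7.30 in neg.si and 8.73, 13.6 and 9.93 in RIPK4.si. RIPK4.si replicate 2 had the highest CPM of the 6 libraries for CXCL8, CXCL10, CCL2 and CCL20.

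**Figure D4:**
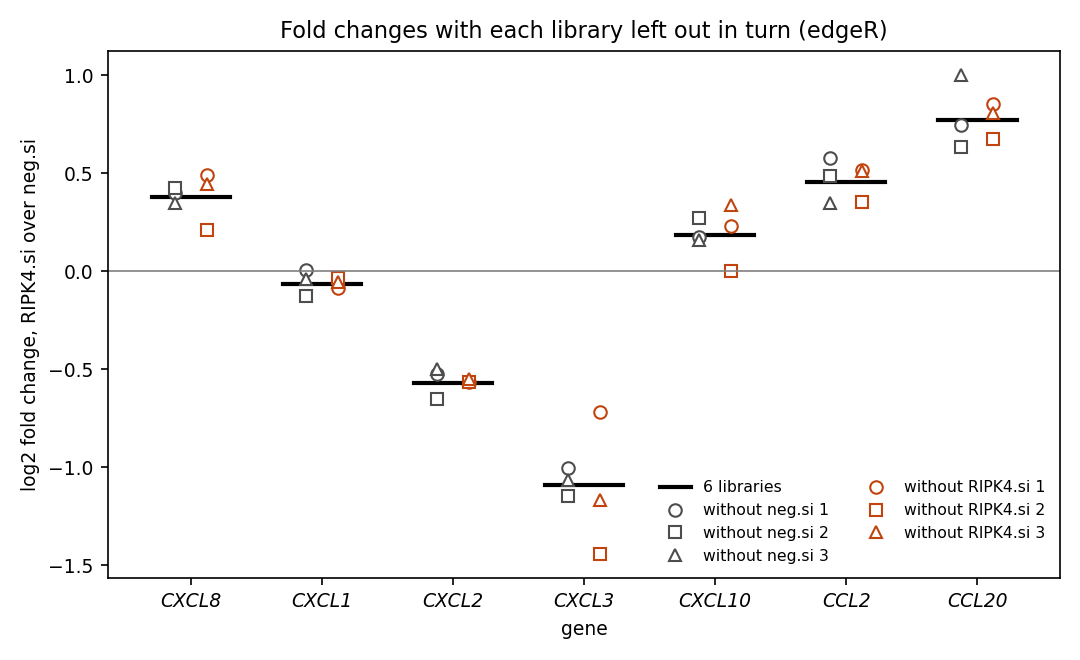
Log2 fold change of each tested member with all 6 libraries (black line) and with each library left out in turn (points). CXCL1 crosses 0, CXCL10 reaches 0.0021 without RIPK4.si replicate 2, and the other 5 members stay on their side of 0.

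In the window from 1 Mb before CXCL8 to 1 Mb after CXCL2 the table held 16 genes, 5 of them members. Of the others, 3 were tested and 8 had too few counts. COX18, a factor of respiratory chain assembly, ANKRD17 and MTHFD2L, a mitochondrial folate enzyme, had log2 fold changes of -0.11, -0.01 and -0.36, with adjusted p-values of 0.923, 0.996 and 0.822 and overlapping groups. With 1 library left out, COX18 ranged from -0.20 (without RIPK4.si replicate 2) to 0.0047 (without RIPK4.si replicate 1), ANKRD17 from -0.11 (without neg.si replicate 1) to 0.12 (without neg.si replicate 3) and MTHFD2L from -0.56 (without RIPK4.si replicate 3) to -0.14 (without RIPK4.si replicate 1).

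The tested genes whose log2 CPM followed that of CXCL8 most closely over the 6 libraries were CLEC2B (Pearson's r = 0.994), ABCG2 (0.992), NIPSNAP3A (0.992), FBXO4 (0.990) and CNBP (0.990). The 6 points include both groups and share library depth and composition, and 75 genes had an r over 0.95. The 5 genes named lie on chromosomes 12, 4, 9, 5 and 3, in that order.

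Of 37 other chemokine ligand genes, 14 were in the table and 7 were tested. The median log2 fold change of the 7 was -0.11. EdgeR called 0 of them, against 0.767% of all genes tested. An unadjusted p-value under 0.05 was found for 1 (10.8% of all), and DESeq2 called 1 (2.78% of all). CXCL14, a chemokine of epithelia, was that gene, with 8.21 ± 1.41 CPM in RIPK4.si against 15.3 ± 0.861 CPM in neg.si (SD, n = 3 each). Its groups did not overlap, and its log2 fold change was -0.90 (adjusted p = 0.0711 with edgeR and 0.00232 with DESeq2, in a range up to 0.422 over the alternatives). EdgeR called CXCL14 with the GC trend removed (0.0195), with the replicate block as well (0.0349) and without neg.si replicate 3 (0.0405). The most abundant by CPM, CXCL16 and CCL28, had log2 fold changes of -0.22 and 0.32 with overlapping groups. CXCL16 had -0.14 without neg.si replicate 2, and CCL28 ranged from 0.19 without RIPK4.si replicate 1 to 0.49 without RIPK4.si replicate 2.

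Of 23 chemokine receptor genes, 11 were in the table and 4 were tested. With edgeR and with DESeq2 0 were called, against 0.767% and 2.78% of all genes tested. At an unadjusted p-value under 0.05 there was 1, against 10.8% of all. CXCR1 had 0 to 6 counts in each library and CXCR2 had 0 to 7, so the receptors of the ELR chemokines were too low to judge. ACKR4, a scavenging receptor for CC chemokines, had 4.69 ± 0.822 CPM in RIPK4.si against 2.76 ± 0.338 CPM in neg.si (SD, n = 3 each). Its log2 fold change was 0.76 (adjusted p = 0.198), and its groups did not overlap. CCR10 had a log2 fold change of 0.36 (adjusted p = 0.844) with overlapping groups, between 0.11 (leaving out neg.si replicate 2) and 0.79 (leaving out neg.si replicate 1).

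All 16 genes of NF-kB subunits, inhibitors and the IKK complex were tested, and edgeR called 0, against 0.767% of all genes tested. Of the 16, 1 had an unadjusted p-value under 0.05 (10.8% of all) and 1 was called by DESeq2 (2.78% of all). Their median log2 fold change was -0.14. IKBKB, the kinase that marks IκB for degradation, had a log2 fold change of -0.59 (adjusted p = 0.128 with edgeR, 0.0388 with DESeq2, and 0.0305 to 0.59 over the alternatives). TNFAIP3, an inhibitor that is also an NF-kB target, had -0.30 (adjusted p = 0.581), and the subunit gene NFKB1 had -0.23 (adjusted p = 0.628). In these 3 genes and in NFKBIA, the groups did not overlap, with RIPK4.si lower, as in 9.4% of all genes tested. TNIP1, the highest in CPM, had 0.23 (adjusted p = 0.845) with overlapping groups. With 1 library left out, TNIP1 ranged from 0.03 (without neg.si replicate 3) to 0.44 (without neg.si replicate 1), and TNFAIP3 was -0.18 without RIPK4.si replicate 2.

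Of 17 genes of the signals that switch on chemokine genes (ligands and receptors, with an antagonist and an adaptor), 13 were tested. The median log2 fold change of the 13 was -0.14. EdgeR called 0, against 0.767% of all genes tested. At an unadjusted p-value under 0.05 there were 3 (10.8% of all), and DESeq2 called 2 (2.78% of all). IL6R, a receptor of interleukin-6, had -0.72 (adjusted p = 0.105) and TLR3, a sensor of double-stranded RNA, had 0.95 (adjusted p = 0.219), both called by DESeq2 (0.0115 and 0.0493) and without overlap. Over the alternatives the adjusted p was 0.0115 to 0.461 for IL6R and 0.0327 to 0.613 for TLR3. EdgeR called both with the GC trend removed (0.0314 and 0.0433) and with the replicate block as well (0.0371 and 0.0327). IL1RAP, shared by receptors of the IL-1 family, and the adaptor MYD88 were highest in CPM, with log2 fold changes of -0.21 and 0.05 and overlapping groups. Without neg.si replicate 3 these were -0.10 and -0.08, and MYD88 had 0.17 without neg.si replicate 2.

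The 11 AP-1, C/EBP and immediate-early factors had a median log2 fold change of 0.15 and gave 0 calls with edgeR and DESeq2. Of all genes tested, 0.767% and 2.78% were called. An unadjusted p-value under 0.05 was found for 1 of the 11, against 10.8% of all. FOSB had 0.72 (adjusted p = 0.326, groups without overlap), ATF3 0.70 (adjusted p = 0.561), FOSL1 0.15 and EGR1 0.0047. ATF3 had 0.45 without RIPK4.si replicate 2, FOSL1 had 0.06 without neg.si replicate 3 and EGR1 had -0.05 without RIPK4.si replicate 2, against 0.25 and 0.06 without neg.si replicate 2. The 13 genes of cytokine transcript decay are for proteins that bind AU-rich or stem-loop elements and for the kinases p38 and MK2. Their median log2 fold change was -0.03. They gave 0 calls with edgeR, where 0.767% of all genes tested were called, and 0 with DESeq2, where 2.78% were. Before adjustment, 1 gene of the 13 lay under 0.05, against 10.8% of all. RC3H2 had -0.42 (adjusted p = 0.421), ZFP36L2 0.24, ZFP36L1 -0.18 and KHSRP -0.02. Without neg.si replicate 3, RC3H2, ZFP36L1 and KHSRP had -0.28, 0.02 and -0.13, while ZFP36L1 had -0.33 without RIPK4.si replicate 3 and KHSRP 0.11 without neg.si replicate 1.

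The interferon pathway, the input of CXCL10, had 13 of its 14 listed genes in the table. All 13 were tested, with a median log2 fold change of 0.19. EdgeR called 0, against 0.767% of all genes tested. Of the 13, 1 had an unadjusted p-value under 0.05 (10.8% of all) and 1 was called by DESeq2 (2.78% of all). STAT2, a signal transducer of type I interferon, had 75.0 ± 7.72 CPM in RIPK4.si against 48.2 ± 6.60 CPM in neg.si (SD, n = 3 each). Its log2 fold change was 0.64 (adjusted p = 0.137 with edgeR and 0.0236 with DESeq2, up to 0.545 over the alternatives) and its groups did not overlap. With the GC trend removed edgeR called STAT2 as well (0.0456). IFIT1, the highest in CPM, had 0.47, and the antiviral MX1 had -0.30, both with overlapping groups. Leaving out neg.si replicate 2 gave 0.81 for IFIT1 and 0.07 for MX1. IFIT1 was lowest without RIPK4.si replicate 2, at 0.30, as was MX1 without neg.si replicate 3, at -0.48.

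Heparan sulfate proteoglycans hold chemokines at the cell surface. Of 15 genes on this list, which also has DPP4, an enzyme that trims chemokines, 14 were in the table and 12 were tested. With edgeR 2 rose and 0 fell, where 0.767% of all genes tested were called, DESeq2 also called 2, where 2.78% of all were, and the median log2 fold change was -0.05. SDC4, a syndecan, rose from 58.0, 58.3 and 54.0 CPM in neg.si to 98.5, 122 and 109 CPM in RIPK4.si. Its log2 fold change was 0.95 (95% interval 0.63 to 1.28, adjusted p = 0.0329). SDC2, a further syndecan, rose from 163, 154 and 156 CPM in neg.si to 256, 284 and 261 CPM in RIPK4.si. Its log2 fold change was 0.76 (95% interval 0.45 to 1.07, adjusted p = 0.0451).

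Both syndecan genes were higher in every RIPK4.si library, and their log2 fold changes stayed between 0.88 and 1.04 for SDC4 and between 0.72 and 0.80 for SDC2 with each library left out. Their calls did not all hold, in fits that called few genes of the whole table (0 without neg.si replicate 2 and 0, 4 and 0 without RIPK4.si replicate 1, 2 or 3). Without neg.si replicate 2 the adjusted p-values of SDC4 and SDC2 were 0.251 and 0.334, and without RIPK4.si replicate 1, 2 or 3 they were 0.123, 0.116 or 0.215 and 0.184, 0.137 or 0.311. SDC2 also had 0.0705 without neg.si replicate 1, 0.0515 with DESeq2's size factors in edgeR, 0.0543 with no filter on low counts and 0.0665 with the replicate number as a block. SDC3, the highest in CPM of the list, and EXT2, which builds the heparan sulfate chain, had log2 fold changes of 0.35 and 0.09 with overlapping groups, and 0.17 and 0.02 without neg.si replicate 3. EXT2 had 0.14 without neg.si replicate 2.

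**Figure D5:**
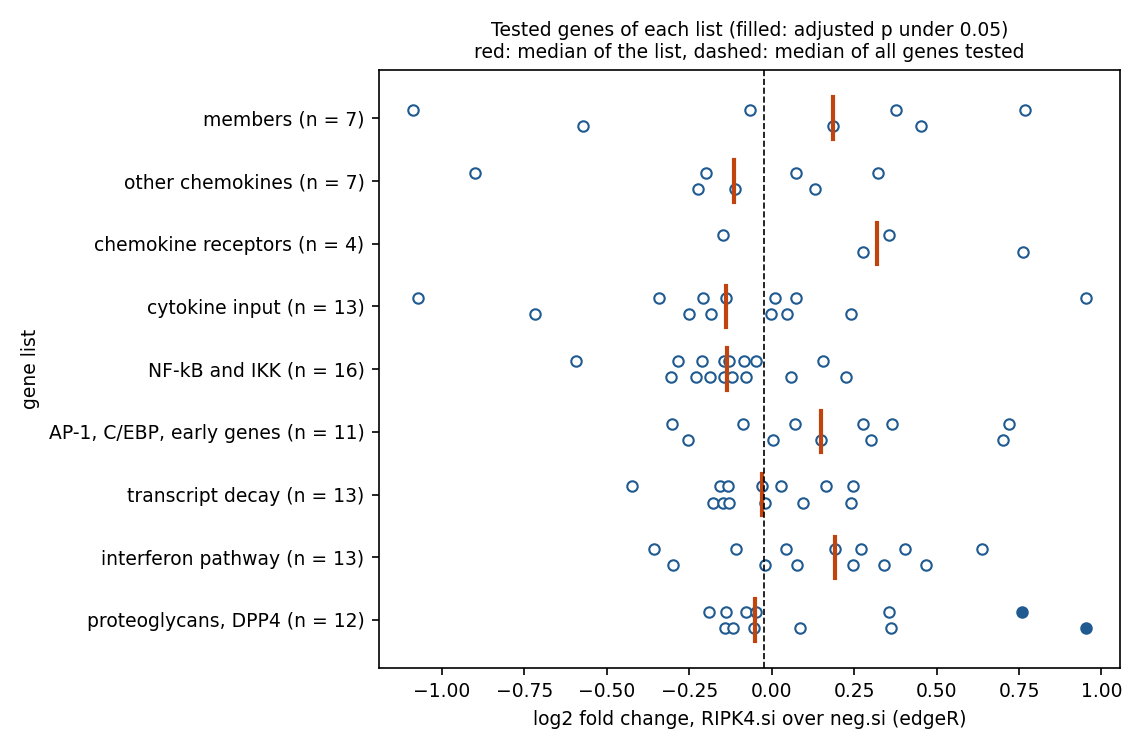
Log2 fold change of RIPK4.si over neg.si for the tested genes of each list other than the cell markers and RIPK4, with the median of the list in red and the median of all genes tested, -0.02, as a dashed line. Filled points, those with an adjusted p under 0.05, are SDC4 and SDC2 alone.

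Markers were read to see which cells the libraries hold. All 8 melanocyte and melanoma markers were in the table, summing to 4012, 3773 and 3573 CPM in neg.si and to 2674, 2759 and 2635 CPM in RIPK4.si, with TYR the most abundant. Of these 8 markers, 0 rose and 1 fell with edgeR, where 0.767% of all genes tested were called. DESeq2 called 3, where 2.78% of all were. PMEL, a protein of pigment granules, had a log2 fold change of -1.30 (adjusted p = 0.0111), and -1.38 to -1.20 with each library left out. Its adjusted p was 0.129 without neg.si replicate 2 and 0.0992, 0.0738 or 0.121 without RIPK4.si replicate 1, 2 or 3. DCT had -0.73 (adjusted p = 0.0854, and 0.00361 to 0.446 over the alternatives), TYR -0.57 (adjusted p = 0.148, and 0.0417 to 0.687) and S100B -0.48 (adjusted p = 0.391, and -0.29 without neg.si replicate 1). DCT was called by edgeR with the GC trend removed (0.0207) and with the replicate block as well (0.0396). The markers did not all go this way, with 5 of the 8 fitted lower and 3 fitted higher. These are bulk libraries, in which fewer cells that express a gene and less RNA per cell cannot be told apart. The part of this difference in the chemokine values was not tested.

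Markers of other cells were low apart from COL1A2. For lymphocytes 4 of 7 were in the table, with sums of 0.42 to 0.804 CPM, and PTPRC had 2 to 13 counts and CD3E 0 to 16. For macrophages and neutrophils 5 of 7 were in the table, with sums of 6.08 to 7.81 CPM in neg.si and 3.70 to 4.43 CPM in RIPK4.si, mostly ITGAM at a log2 fold change of -0.98 (adjusted p = 0.167, and 0.0452 to 0.608 over the alternatives), and CD14 at -0.49 (adjusted p = 0.784, and 0.0018 without neg.si replicate 1). For endothelium 4 of 5 summed to 4.13 to 5.19 CPM, with TEK, KDR and PECAM1 at 0.21, -0.15 and 0.54, all overlapping. Without neg.si replicate 2 these were 0.04, 0.21 and 0.94, and without neg.si replicate 3 they were 0.38, -0.33 and 0.17. For keratinocytes 5 of 6 summed to 10.6 to 16.3 CPM, nearly all KRT10 at 0.41 (adjusted p = 0.438), while KRT5 and KRT14 had counts in replicate 1 of both groups alone and TP63 4 to 10 counts. For fibroblasts 7 of 7 summed to 517 to 1045 CPM, of which COL1A2 was 99.2% at a log2 fold change of 0.16, while COL1A1 had 0 to 9 counts, and PDGFRB and LUM had 0.38 and 0.87 with overlapping groups. Without neg.si replicate 3 these were 0.17 and 0.50, and COL1A2 ranged from -0.10 without RIPK4.si replicate 1 to 0.40 without RIPK4.si replicate 2. None of the tested markers of these 5 other cell types was called by edgeR with all 6 libraries, against 0.767% of all genes tested. An unadjusted p-value under 0.05 was found for 2 (KRT10 and ITGAM), against 10.8% of all. DESeq2 called 1, ITGAM, against 2.78% of all. Without neg.si replicate 3 edgeR called ITGAM as well.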

How the data were processed

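The 6 libraries of WM266.4 cells were grouped by the siRNA named in the labels. The authors prepared poly(A) libraries and read them as pairs. Cutadapt, FastQC, TopHat and GRCh38.p13 are named in the submitters' notes and the methods, and HTSeq, run without strand, in the methods. The deposited counts are integers of read pairs, without normalization. The deposited signal values are counts scaled by the authors' size factors, with their mean. The deposited fold (ratio), log2 fold change with standard error, and p-value columns hold the authors' own comparison and were not used.

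The counts went into edgeR 4.0.16 under R 4.3.3 (TMM, its filter on low counts, quasi-likelihood test, Benjamini-Hochberg adjustment over all 16297 genes tested, called at an adjusted p under 0.05). CPM used TMM-scaled totals. Exon length and the GC content of the longest transcript came from GENCODE 44 for 24416 of 24526 genes. Alternatives were DESeq2 1.42.0, other scalings and filters, a replicate block, removal of each library's GC trend by lowess (span 0.3) and each library left out. For named genes other than the members and RIPK4 they were added after seeing the data. Other steps used Python 3.11.15, numpy 2.4.6, pandas 2.3.3 and matplotlib 3.10.9.

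The members and lists were chosen with earlier results of these data known. The genes named were the members, RIPK4, and from each other list those called, the 2 highest in CPM and the 2 with the smallest p-values, the tested neighbours on chromosome 4 and the 5 genes most like CXCL8. CXCR1, CXCR2, NFKBIA, KRT5, KRT14 and COL1A1, outside this rule, were named after the values were seen. Of the 4 promoter motifs, 1 was shortened after a first search, and both forms are given. Between replicates, chi-square per degree of freedom was 18.4 to 132, above sampling noise.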

Additional observations from a re-analysis of the deposited data

How the results depend on the processing

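The count of 0 members called with edgeR held under all 14 alternatives, with 1 to 5 members at an unadjusted p-value under 0.05. Of 97 member values under alternatives, 96 kept their direction, and CXCL1 turned (-0.13 to 0.0053 with 1 library left out). CXCL3 could not be tested with at least 10 counts in every library. The 125 genes called became 430 with DESeq2, 533 with the GC trend removed, 434 with the GC trend removed and the replicate block, and 0 to 295 with 1 library left out. The replicate block alone gave 131. Whether equal numbers pair the libraries was not clear: deviations from group means correlated at -0.242, 0.251 and 0.346 for numbers 1, 2 and 3, and neg.si replicate 1 correlated best with RIPK4.si replicate 2 (0.413), while KRT5 and KRT14 were among 27 genes with counts in both replicates 1 and no other library (7 to 39 for other pairs across groups). RIPK4 ranged from -2.06 to -1.74 with 1 library left out. Some genes outside the members also turned. ANKRD17 was 0.0036 with DESeq2 and with its size factors in edgeR, 0.00094 with upper-quartile scaling, 0.0031 with no filter, 0.024 with the GC trend removed and 0.022 with the block as well, and EGR1 -0.012 and -0.0036 under the last 2. With 1 library left out, ANKRD17 ranged from -0.11 to 0.12, EGR1 from -0.0472 to 0.0587, COX18 from -0.20 to 0.0047, CD14 from -0.74 to 0.0018, COL1A2 from -0.10 to 0.40, KDR from -0.36 to 0.21, KHSRP from -0.13 to 0.11, MYD88 from -0.0764 to 0.17, PTPRC from -0.56 to 0.0443, MX1 from -0.48 to 0.0681 and ZFP36L1 from -0.33 to 0.0226. The cause was not tested. Depth limits CXCL5 and CXCL3.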
